A study of Homo sapiens with 9 samples.

Results

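The genes described here encode proteins of the small (40S) subunit of the cytosolic ribosome. They were chosen by name, as 28 listed gene symbols looked up in the count tables of all 9 libraries. The rule uses no measured value, but the list was drawn up with earlier results of these data known. All 28 were found among the 26485 gene models counted. The study isolated total RNA with magnetic nanoparticles (the NAxtra method) from sorted HAP1 cells and sequenced it, to ask how expression profiles hold up as the number of cells falls. The libraries came from 1 cell (n = 3), 10 cells (n = 2), 100 cells (n = 2) and 1000 cells (n = 2), all of untreated, wild-type HAP1, an adherent human line with a near-haploid genome that descends from a chronic myeloid leukaemia line. All libraries share 1 cell line, and the labels call them biological replicates without saying whether they came from separate cultures, so p-values measure the spread between these libraries.

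The small subunit binds messenger RNA and reads its codons, and it is built from 18S ribosomal RNA and a set of proteins, each needed in about equal number per ribosome. Its proteins sit in the body, which holds the decoding centre and the mRNA entry side, or in the head, which swivels as tRNAs move. Their mRNAs are among the most abundant and most steadily expressed in growing cells, and many begin with a 5′ terminal oligopyrimidine tract (TOP), a C followed by further C and T bases at the first transcribed position, through which LARP1 and the mTOR pathway hold or release their translation. Human ribosomal protein genes also have many processed pseudogenes, which are copies of the spliced mRNA placed elsewhere in the genome, so a read from the mRNA can match several loci.

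The annotated start sites are shown for the genes that the results below turn on, because this is the sequence feature the members share and the rule did not use. RefSeq start sites (GRCh38.p14) were used for 24 of the 28 members. RPS2, RPS15A and RPS20 had none in the table used, and the start listed for RPS29 was set aside because it lies 12294 bases outside the counted gene. A start was counted as TOP-like when its first base was C and at least the next 4 bases were C or T, read on the strand of the gene. At least 1 start of this kind was annotated for 19 of the 24 members (79.2%), against 28 of 38 large-subunit genes (73.7%) and 1404 of all 27305 genes (5.14%). In the sequences below, 15 bases before and 15 bases from the annotated start are written 5′ to 3′, and the pyrimidine run from the start is in capitals where it met the rule. RPS27 (chr1:153990747-153990776 on the plus strand), RPS19 (chr19:41860240-41860269 on the plus strand), RPS25 (chr11:119018329-119018358 on the minus strand), RPS6 (chr9:19380222-19380251 on the minus strand) and RPSA (chr3:39406705-39406734 on the plus strand) had such a start. RPS7 (chr2:3575245-3575274 on the plus strand), RPS4X (chrX:72277234-72277263 on the minus strand), RPS26 (chr12:56041903-56041932 on the plus strand) and RPS28 (chr19:8321481-8321510 on the plus strand) did not at the annotated position. The other member without one was RPS15.
RPS27: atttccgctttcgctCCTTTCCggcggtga
RPS19: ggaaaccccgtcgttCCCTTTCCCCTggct
RPS25: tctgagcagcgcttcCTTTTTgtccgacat
RPS6: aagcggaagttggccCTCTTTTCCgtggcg
RPSA: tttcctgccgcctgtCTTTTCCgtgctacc
RPS7: gtttccgccctcctcctcgcgctgtttccg
RPS4X: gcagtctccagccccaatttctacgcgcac
RPS26: gagacacataacctcgattttcttccgcca
RPS28: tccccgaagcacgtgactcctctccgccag
In RPS7, RPS4X, RPS26, RPS28 and RPS15 a pyrimidine stretch lies within 15 bases of the annotated position. RefSeq starts can be off by a few bases, so these are sequence matches and not measured starts.

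Total counts lay between 42842970 and 61645865 per library, so depth differed by at most 1.44-fold and did not follow the number of cells. Between 13968 and 14478 genes had at least 1 count in the single cells, 16283 and 16552 at 10 cells, and 18232 and 18634 at 1000 cells. The 2 libraries of 100 cells stood apart from each other, with 16474 genes in replicate 1 and 18368 in replicate 2, so that replicate 1 resembled the 10-cell libraries. Results that rest on it are given below with and without it. As a check of the cell line, 7 myeloid and erythroid markers summed to 1.62 CPM or less in every library. MPO and HBG1 were at 0 in all, while HBA1 reached 1.62 CPM in single cell 1 and CD33 reached 1.38 CPM in 10 cells replicate 1. Sums were 7.59 to 18.2 CPM for 8 fibroblast markers and 42.6 to 61.9 CPM for 7 plasma cell markers, led by SDC1. COL1A1 led the fibroblast markers except in single cell 2, where THY1 had 10.6 CPM and COL1A1 3.76 CPM. THY1 was at 0 in single cells 1 and 3. BCR and ABL1, whose fusion marks the leukaemia of origin, summed to 13.8 to 44.2 CPM. CPM is counts scaled to a library of 1000000 counts with TMM factors, and counts were read counts in which both mates of a pair could be counted.

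In levels, the 28 genes spanned 94.3-fold, with a median over genes of 251 CPM and 23 genes above 100 CPM. Of all 26485 gene models, 21 members were among the 1000 highest and 3 among the 100 highest by mean CPM. RPS4X, the X-linked gene for a body protein, was the highest member, with 1359, 1360.3 and 1267 CPM in the single cells, 1373 and 1294 CPM at 10 cells, 1371 and 1355 CPM at 100 cells and 1319.8 and 1378 CPM at 1000 cells. These 9 values overlapped across all cell numbers. RPS6, the body protein that S6 kinases phosphorylate, had 806, 960.2 and 878 CPM in the single cells, 1066 and 853 CPM at 10 cells, 909 and 952 CPM at 100 cells and 968 and 942 CPM at 1000 cells. RPS18, a protein of the head near the large subunit, had 531, 585 and 519 CPM in the single cells, 593 and 526 CPM at 10 cells, 568 and 666 CPM at 100 cells and 606 and 599 CPM at 1000 cells, and its groups overlapped. RPS3 and RPS23 lay between, at means of 934 and 662 CPM. Per kilobase of counted exon, the highest levels were 1404 CPM for RPS4X, 1117 for RPS6 and 1064 for RPS18, and the lowest were 20.9 for RPS26, 40.8 for RPS10 and 42.3 for RPS29.

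At the low end stood 5 genes under 100 CPM, although their proteins are parts of every small subunit. RPS26, a protein at the mRNA exit site, had 15.1, 20.1 and 17.1 CPM in the single cells, 9.39 and 12.5 CPM at 10 cells, 13.9 and 13.4 CPM at 100 cells and 13.9 and 12.5 CPM at 1000 cells. RPS28, a small head protein, had 8.11, 18.1 and 14.5 CPM in the single cells, 18.9 and 23.8 CPM at 10 cells, 16.8 and 24.2 CPM at 100 cells and 20.0 and 23.4 CPM at 1000 cells. Its lowest value was that of single cell 1, and single cell 3 also lay below all 6 other libraries, while single cell 2 was within their range. RPS10, a head protein and a target of the ubiquitin ligase ZNF598, had 23.3, 31.4 and 34.2 CPM in the single cells, 32.8 and 31.9 CPM at 10 cells, 28.02 and 45.7 CPM at 100 cells and 49.4 and 46.2 CPM at 1000 cells. RPS29, a zinc-binding head protein, had 58.3, 68.8 and 80.9 CPM in the single cells, 63.3 and 49.4 CPM at 10 cells, 56.0 and 69.6 CPM at 100 cells and 64.6 and 67.1 CPM at 1000 cells. For RPS29 the groups overlapped, whereas for RPS10 both 1000-cell libraries lay above every library of 1, 10 and 100 cells.

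Of the head proteins not given library by library, none passed edgeR's quasi-likelihood test in any of the 5 comparisons of cell numbers. RPS3, at the mRNA entry channel, had 880.2 to 966 CPM in the single cells and 885 to 988 CPM in the 6 other libraries. RPS20, a target of ZNF598 like RPS10, had 374 to 412 CPM in the single cells and 325 to 405 CPM in the 6 other libraries. RPS3 and RPS20 had overlapping single-cell and multi-cell values and an SD of log2 CPM under 0.1 among single cells. RPS16, whose tail reaches the P-site tRNA, had 255 to 282 CPM in the single cells and 236 to 319 CPM in the 6 other libraries. RPS12, a protein of the beak of the head, had 216 to 265 CPM in the single cells and 216 to 294 CPM in the 6 other libraries. RPS15 had 264 to 373 CPM in the single cells and 287 to 332 CPM in the 6 other libraries, so its single cells spread over a wider range than all other libraries together.

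Among the remaining body proteins, RPS23, of the decoding centre, had 571 to 746 CPM in the single cells and 609 to 706 CPM in the 6 other libraries. RPS24, one of the genes mutated in Diamond-Blackfan anaemia, had 287 to 401 CPM in the single cells and 344 to 429.7 CPM in the 6 other libraries. RPS9, a protein that bears on decoding accuracy in yeast, had 155 to 217 CPM in the single cells and 203 to 238 CPM in the 6 other libraries, and its single cells averaged 185 ± 31.5 CPM against 218 ± 14.1 CPM (SD, n = 3 and 6) with a log2 fold change of -0.24 ± 0.11 (SE, adjusted p = 0.19, edgeR). RPS14, the gene lost in the myelodysplasia with deletion on the long arm of chromosome 5, had 176 to 229 CPM in the single cells and 184 to 229.9 CPM in the 6 other libraries. RPS21 had 198 to 311 CPM in the single cells and 161 to 235 CPM in the 6 other libraries, and FAU had 208 to 293 CPM in the single cells and 242 to 279 CPM in the 6 other libraries. RPS3A had 154 to 212 CPM in the single cells and 158 to 209.7 CPM in the 6 other libraries. None of these 7 genes passed edgeR's test in any of the 5 comparisons, while DESeq2 called RPS3A and RPS21 lower at 10 against 1000 cells, as given below.

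**Figure D1:**
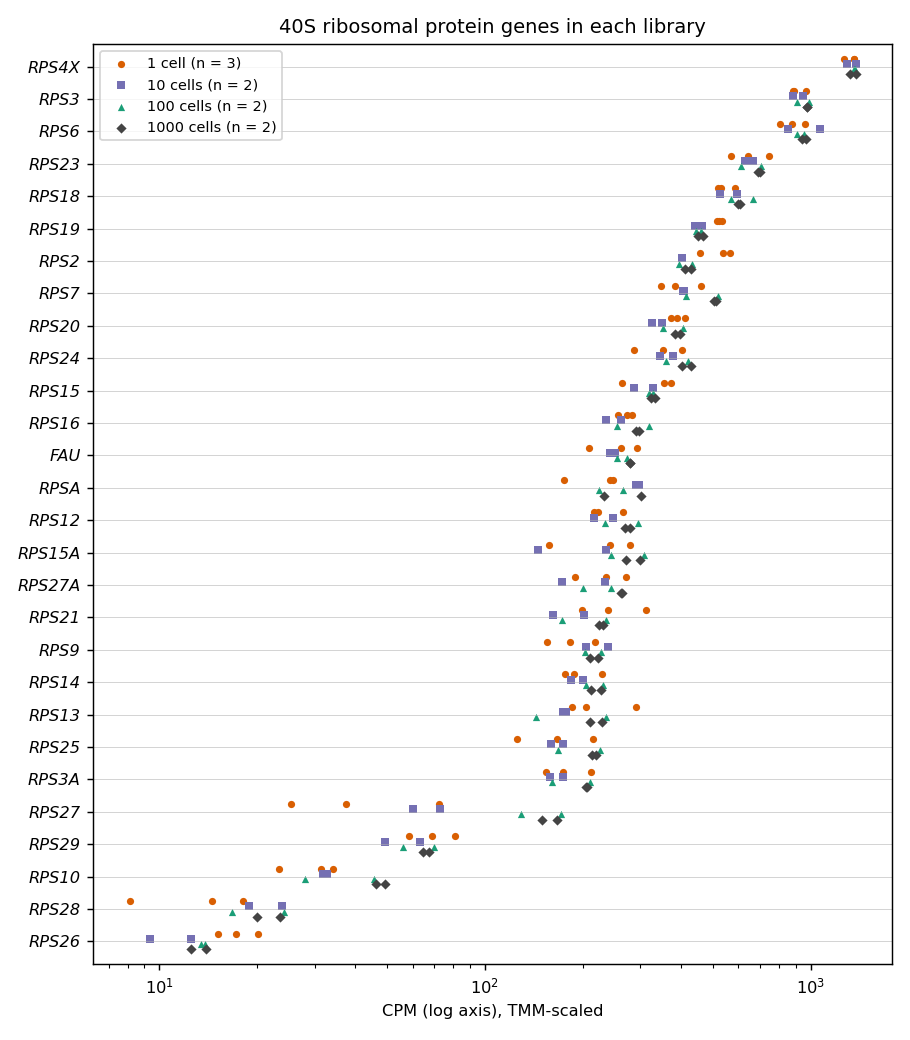
CPM of the 28 genes (rows, ordered by mean level) in each of the 9 libraries on a log axis, with 1 point per library and a colour and shape for each number of sorted cells. RPS4X leads at 1267 to 1378 CPM, RPS27 spreads from 25.4 to 171 CPM, and RPS26, RPS28, RPS10 and RPS29 lie below 100 CPM in all libraries.

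How much of each coding sequence is found again elsewhere differed widely and went with the level. Coding sequences were cut into all windows of 50 bases, the read length of the study, and each window was looked up in the transcripts of all other GENCODE genes. For RPS10, RPS26, RPS27 and RPS28 every window occurred in another gene, followed by RPS3A (98.9%), RPSA (87.6%), RPS7 (82.7%), RPS27A (80.4%) and RPS2 (77.95%). The smallest shares were 1.5% for RPS21 and 2.07% for RPS19. The 14 genes with under 50% of windows in copies had a median of 766 CPM per coding kilobase, and the other 14 had a median of 441. Across the 28 genes the Spearman correlation of this share with CPM per coding kilobase was -0.61 and with CPM per kilobase of counted exon -0.56, a description over genes that share libraries. Among the 14 genes below 50%, levels per coding kilobase spanned 4.79-fold, against 41.3-fold over all 28. Reads that align to several places were left out of the counts by the counting settings, and how far this lowers or raises the count of a gene with copies was not tested.

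**Figure D2:**
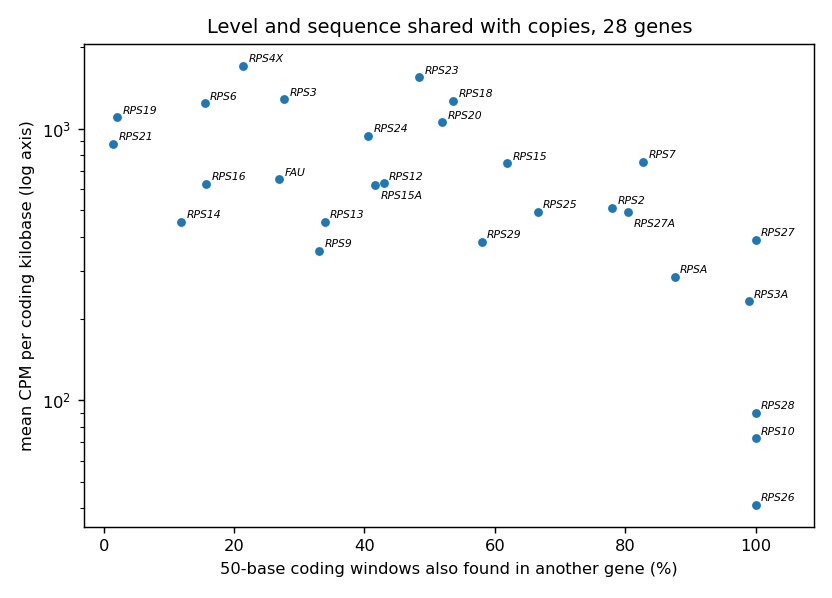
Mean CPM per coding kilobase over the 9 libraries (log axis) against the share of 50-base coding windows that also occur in another annotated gene, 1 point per gene. RPS26, RPS10 and RPS28, at 41.2 to 90.1 CPM per coding kilobase, are at 100%, and RPS4X, the highest at 1701, is at 21.4%.

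RPSA, a body protein also known as the laminin receptor, shares much of its coding sequence with a copy that was also counted. This copy, RPSAP58, has a row of its own in the tables, at a level close to that of RPSA. RPSA had 248, 175 and 242 CPM in the single cells, 297 and 290.2 CPM at 10 cells, 264 and 224 CPM at 100 cells and 232 and 300.5 CPM at 1000 cells. RPSAP58 had 249, 256 and 232 CPM in the single cells, 186 and 182 CPM at 10 cells, 212 and 258 CPM at 100 cells and 249 and 192 CPM at 1000 cells. The 3 libraries with the most reads on RPSA had the fewest on RPSAP58, and the share of RPSA in their sum ran from 40.7% to 61.55%. Over the 6 libraries of 10, 100 and 1000 cells the sum of both stayed between 472 and 493 CPM, a 1.04-fold range, against 1.34-fold for RPSA alone and 1.42-fold for RPSAP58 alone. The sums in the single cells were 497, 431 and 474 CPM. Changes of RPSA alone are therefore uncertain. The other copies with rows of their own were lower: RPS16P5 had 4.83, 11.8 and 47.2 CPM in the single cells against 17.7 to 24.3 CPM in the 6 other libraries, and RPS14P3 had 7.34, 10.3 and 24.5 CPM against 6.20 to 9.63 CPM. Single cell 3 was the highest library for both copies.

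**Figure D3:**
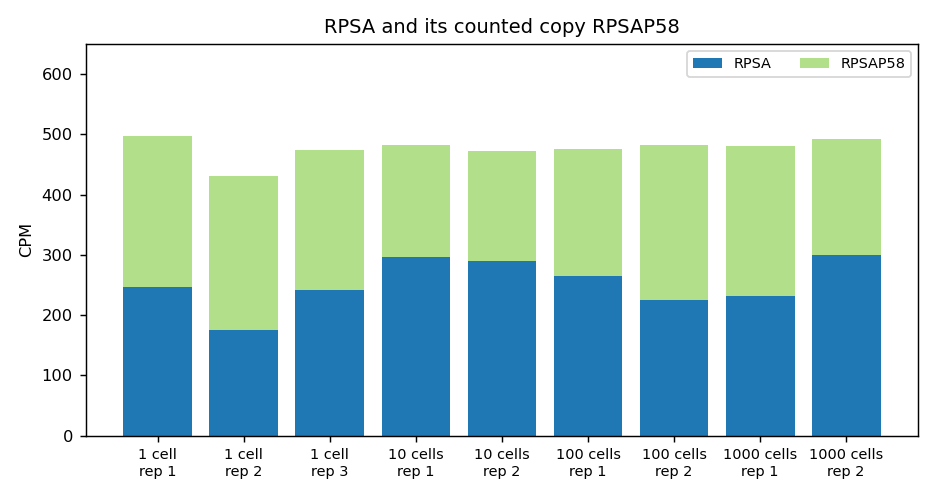
CPM of RPSA and of its annotated copy RPSAP58, stacked for each library, with the bars starting at 0. The boundary between both moves from library to library while the total stays between 472 and 493 CPM in the 6 libraries of 10 or more cells.

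Overlap with other annotated genes touched 3 members on the same strand. For RPS10, 550 of its 880 counted exon bases (62.5%) are shared with the readthrough gene RPS10-NUDT3, whose count was 0 in every library, and reads that match both genes were left out by the counting settings. SNORD73A shares 65 bases with RPS3A, and MIR4426 shares 60 bases with RPS27A. RPS9 and RPS18 are also annotated on 9 and 5 alternate contigs, which lengthens their deposited gene length to 7144 and 2858 bases, and levels per kilobase here used 713 and 542 bases on the primary chromosome. The remaining 23 members had neither kind of overlap.

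Setting the 3 single cells against the 6 libraries of 10, 100 and 1000 cells asked which members differ when the RNA comes from 1 cell. RPS2 and RPS19 were higher in the single cells and RPS27 was lower, and 25 of 28 members did not pass the test. The test was edgeR's quasi-likelihood test with Benjamini-Hochberg adjustment over all 15603 genes tested, at an adjusted p under 0.05. All 28 members passed the filter on low counts. Of all genes tested, 2.22% were called higher and 4.45% lower, beside 2 and 1 of the 28 members, counts too small to read against these shares. The median log2 fold change of the members was -0.05, with 19 of 28 below 0, and that of all genes was 0.01.

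RPS2, which lines the mRNA entry channel in the body (chromosome 16, 1962061 to 1964826, minus strand), had 565, 537 and 458 CPM in the single cells, 401 and 404 CPM at 10 cells, 395 and 431 CPM at 100 cells and 412 and 429 CPM at 1000 cells. All 3 single cells lay above all 6 other libraries. The means were 520.3 ± 55.5 CPM in single cells and 412 ± 14.9 CPM in the others (SD, n = 3 and 6), a log2 fold change of 0.34 ± 0.07 (SE, adjusted p = 0.0258, edgeR). RPS19, a head protein mutated in Diamond-Blackfan anaemia (chromosome 19, 41859918 to 41871416, plus strand), had 515, 523 and 535 CPM in the single cells, 462 and 442 CPM at 10 cells, 446 and 460.4 CPM at 100 cells and 467 and 452 CPM at 1000 cells. Again the groups did not overlap, with a tight cluster on each side. Its log2 fold change was 0.20 ± 0.05 (SE, adjusted p = 0.0424, edgeR). RPS19 shares almost no coding sequence with copies, whereas 77.95% of the windows of RPS2 do. RPS26 was the third member with every single cell above the 6 others, at a log2 fold change of 0.47 ± 0.22 (SE, adjusted p = 0.224). Such a separation upwards was seen for 3 of 28 members, and for 4.94% of all genes tested, and a separation downwards for 0 of 28 members and 10.1% of all genes.

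RPS27, a zinc-binding body protein (chromosome 1, 153990763 to 153992155, plus strand), was the member that varied most. It had 72.2, 37.6 and 25.4 CPM in the single cells, 72.6 and 60.0 CPM at 10 cells, 129 and 171 CPM at 100 cells and 167 and 149.6 CPM at 1000 cells. The single cells and the 10-cell libraries lay below all libraries of 100 and 1000 cells, and single cells overlapped the 10-cell libraries through single cell 1. Single cells averaged 45.1 ± 24.3 CPM and the 6 other libraries 125 ± 47.8 CPM (SD, n = 3 and 6), a log2 fold change of -1.47 ± 0.40 (SE, adjusted p = 0.0496, edgeR). All of its coding windows occur in copies, and its 351 counted exon bases are the fewest of the 28 genes. The part of copies and of length in this difference was not tested. RPS27L, a paralogue with a row of its own, had 46.7, 30.4 and 13.6 CPM in the single cells, 26.3 and 19.2 CPM at 10 cells, 17.4 and 32.7 CPM at 100 cells and 30.6 and 32.9 CPM at 1000 cells.

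The 3 calls stood close to the threshold. RPS2 missed it without 100 cells replicate 2, 1000 cells replicate 1 or 1000 cells replicate 2 (adjusted p of 0.0683, 0.0678 and 0.0672), settings under which no gene of the genome passed. RPS19 missed it without any 1 of the 6 libraries of 10, 100 or 1000 cells (adjusted p of 0.0643 to 0.108), and RPS27 without single cell 2 or 3, 10 cells replicate 1, or any library of 100 or 1000 cells (0.0506 to 0.104). Directions held in each case.

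Each single cell was also read on its own. Against the range of the 6 other libraries, single cell 1 had 7 members above and 7 below, single cell 2 had 3 above and 6 below, and single cell 3 had 10 above and 9 below. Over 16184 genes the shares were 32.0%, 31.0% and 32.8% above and 37.1%, 37.4% and 40.2% below, and the counts of the members were near or under these shares. Below both 1000-cell libraries lay 15, 22 and 16 of 28 members in single cells 1 to 3, against 52.6%, 53.3% and 54.4% of all genes. The median difference of the members from the 1000-cell mean was -0.11, -0.21 and -0.11 on the log2 scale, and single cell 2 lay between the 10-cell libraries, at -0.16 and -0.25. In these, 24 and 23 of 28 members were below both 1000-cell libraries, against 43.8% and 43.7% of all genes. The high members of single cell 3 included RPS13, RPS21, RPS29 and FAU, the gene for a ubiquitin-like protein fused to ribosomal protein S30, and its low members included RPS3, RPS4X, RPS14 and RPS18. In single cell 1 the low members were RPS6, RPS7, RPS10, RPS12, RPS25, RPS28 and FAU, so FAU was low in single cell 1 and high in single cell 3. Some margins were very small. RPS12 had 215.51 CPM in single cell 1 against 215.65 CPM in the lowest of the 6 other libraries. In single cell 3, RPS3 had 880 against 885 CPM and RPS18 had 519 against 526 CPM. RPS15, a head protein near the decoding site, was above the range in single cells 1 and 3 and below it in single cell 2. Of the library size scaled with TMM factors, the 28 genes together took 0.977%, 0.947% and 0.972% in single cells 1 to 3. In the 6 other libraries they took 0.912% to 1.06%.

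Spread among the single cells was measured as the SD of log2 CPM over the 3 cells. It had a median of 0.23 over the members, next to the 0.23 of 2256 other genes at 100 to 1000 CPM and above the 0.18 of 47 large-subunit genes. The members were not all at that level. Of the 28, 23 averaged above 100 CPM, while RPS27 and RPS28 averaged 98.2 and 18.6 CPM and RPS4X 1342 CPM. RPS27 had the largest SD at 0.76, followed by RPS28 at 0.60 and RPS15A at 0.43. RPS15A, a body protein, had 279, 158 and 243 CPM in the single cells, 145 and 235 CPM at 10 cells, 244 and 308 CPM at 100 cells and 271 and 299 CPM at 1000 cells. Its lowest values were those of 10 cells replicate 1 and single cell 2, so its spread was not limited to single cells. RPS19 had the smallest SD at 0.03, and RPS4X, RPS20, RPS16, RPS3 and RPS18 also stayed under 0.1. The SD was larger at lower level, with a Spearman correlation of -0.69 across the 28 genes, given as a description.

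Among the 6 libraries of 10, 100 and 1000 cells the order was different. There the members had a median SD of 0.17, against 0.08 for the other genes at 100 to 1000 CPM and 0.12 for large-subunit genes. The SD was larger among single cells than among these 6 libraries for 21 of 28 members (75%) and for 90% of the other genes at 100 to 1000 CPM. The cell numbers and the 2 libraries of 100 cells differed for these genes, as described next.

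**Figure D4:**
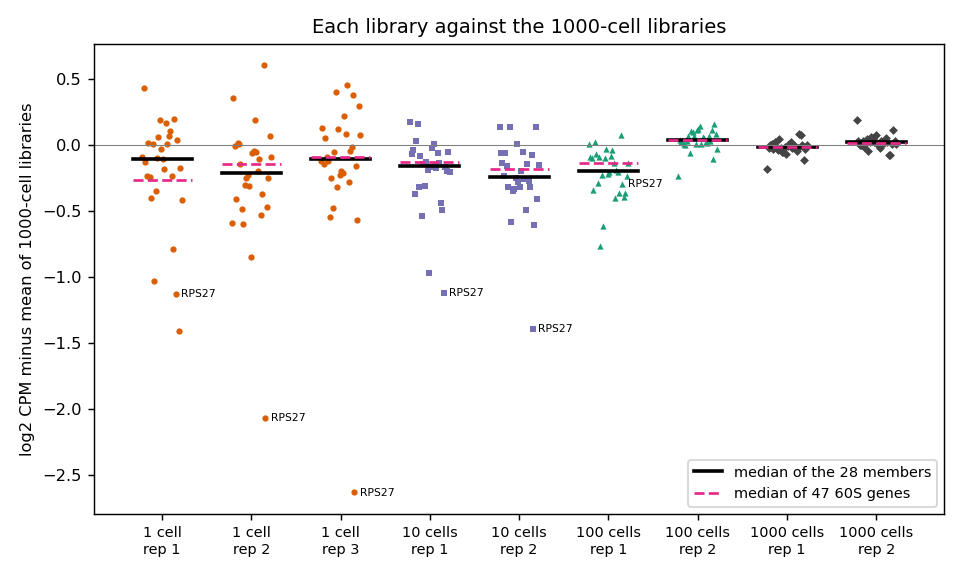
Difference of log2 CPM from the mean of both 1000-cell libraries for each of the 28 genes (points) in each library, with the median of the 28 members (black line) and of 47 large-subunit genes (dashed line). The medians lie at -0.16 and -0.25 in the 10-cell libraries and at -0.20 in 100 cells replicate 1, and at 0.04 in 100 cells replicate 2.

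The comparison of 10 cells with 1000 cells showed a small, broad difference. Of the 28 members, 25 had a log2 fold change below 0, against 48.8% of all 15449 genes, and the median was -0.20 against 0.01 over all genes. Both 10-cell libraries lay below both 1000-cell libraries for 20 of 28 members, and for 22.9% of all genes. None passed the adjusted threshold in edgeR, where 0% of all genes did. At an unadjusted p under 0.05, 15 of 28 members were lower and 0 higher, against 5.66% of all genes lower. DESeq2's Wald test called 9 members lower, RPS3A, RPS7, RPS10, RPS13, RPS16, RPS21, RPS25, RPS27 and RPS27A, and 1.32% of the genes it tested.

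RPS7, a body protein that also binds MDM2, had 383, 459.9 and 347 CPM in the single cells, 408 and 406 CPM at 10 cells, 415 and 519 CPM at 100 cells and 505 and 511 CPM at 1000 cells. Its 10-cell values were below both 1000-cell values and nearly equal to each other, at a log2 fold change of -0.32 ± 0.04 (SE, adjusted p = 0.198, edgeR). RPS25, a head protein used in translation from viral internal ribosome entry sites, had 125, 166 and 214 CPM in the single cells, 159 and 173 CPM at 10 cells, 168 and 226 CPM at 100 cells and 213 and 219 CPM at 1000 cells. Both 10-cell libraries and 100 cells replicate 1 were low, and the log2 fold change at 10 cells was -0.37 ± 0.07 (SE, adjusted p = 0.247). RPS13, a body protein at the bridge to the large subunit, had 204, 185 and 290.1 CPM in the single cells, 177 and 174 CPM at 10 cells, 143 and 235 CPM at 100 cells and 211 and 228 CPM at 1000 cells. Its lowest library was 100 cells replicate 1. RPS10 was at -0.56 ± 0.10 (adjusted p = 0.257), RPS15A at -0.58 ± 0.20 (adjusted p = 0.378) and RPS27 at -1.25 ± 0.11 (adjusted p = 0.0758). Only RPSA, RPS9 and RPS6 had values above 0, at 0.14 ± 0.11, 0.03 ± 0.08 and 0.01 ± 0.09 (log2, SE), and each was below 0 in at least 1 of the fits that leave out a library.

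**Figure D5:**
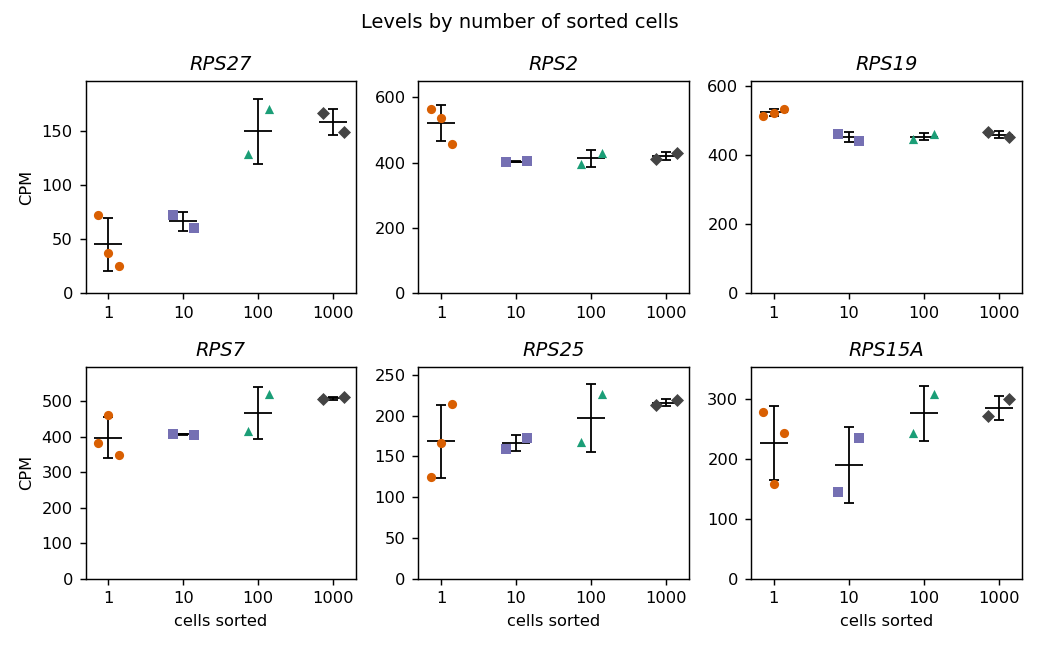
CPM of RPS27, RPS2, RPS19, RPS7, RPS25 and RPS15A by number of sorted cells, with 1 point per library, the mean as a line and the SD as error bars (n = 3 at 1 cell, n = 2 otherwise), on axes that start at 0. RPS27 lies at 25.4 to 72.6 CPM at 1 and 10 cells and at 129 to 171 CPM at 100 and 1000 cells, RPS2 and RPS19 lie highest in the single cells, and for RPS7 and RPS25 the libraries of 100 cells lie apart at 415 and 519 CPM and at 168 and 226 CPM.

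How many members passed depended on which library was left out. Without 10 cells replicate 1 or 2, edgeR called 20 and 17 of 28 members lower, with 1 higher each time (RPS9 and RPS6), while 13.1% and 15.9% of all genes were called lower. In these fits 1 library stands for the 10-cell group and is assumed to vary like the 1000-cell libraries. RPS6 was among the members lower without replicate 1, so its direction rested on which 10-cell library was kept. Without 1000 cells replicate 1 or 2, where 1 library stands for the 1000-cell group, 2 members were lower, RPS15A and RPS27, against 0.0369% and 0.0248% of all genes. Without the filter on low counts, 8 members were lower and 0.363% of all genes.

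The lower values at 10 cells were also read by place in the subunit, by copies and by start. The 12 head proteins had a median log2 fold change of -0.21 and the 16 body proteins -0.19. Genes with under 50% of windows in copies had -0.18 and the others -0.24, with 14 genes in each set. Members with a TOP-like start had -0.20 (19 genes) and those without one -0.08 (5 genes). None of these differences was tested. Among other abundant genes with no ribosomal protein genes, 82 at 100 CPM or more with at most 1000 counted exon bases had a median of -0.09, with 74.4% below 0, against 0.01 and 47.6% for 2267 genes at 100 CPM or more of any length. Across the 28 members the fold change had a Spearman correlation of 0.41 with coding length and 0.31 with counted exon length, given as a description. The part of transcript length in the difference was not tested.

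At 100 cells against 1000 cells no member passed the adjusted threshold, nor did any gene (0%). The median log2 fold change was -0.06, with 25 of 28 below 0. One member was lower at an unadjusted p under 0.05, against 0.904% of all genes: RPS27A, a head protein made as a fusion with ubiquitin, with 270.2, 189 and 236 CPM in the single cells, 234 and 172 CPM at 10 cells, 200.2 and 244 CPM at 100 cells and 262 and 263 CPM at 1000 cells and a log2 fold change of -0.24 ± 0.09 (SE, adjusted p = 0.952, edgeR). The 100-cell libraries disagreed here. In 100 cells replicate 1, 25 of 28 members lay below both 1000-cell libraries, against 44.5% of all genes, and in replicate 2, 4 of 28 did, against 33.2%. The median difference of the members was -0.20 in replicate 1 and 0.04 in replicate 2, and that of all genes was -0.0146 and 0.0025. Leaving out replicate 1 gave a median log2 fold change of 0.04 and 0 members called. Without replicate 2 it was -0.20, with 18 members lower against 16% of all genes. Both of these fits hold 1 library of 100 cells, which is assumed to vary like the 1000-cell pair. Genes detected moved with this, at 16474 and 18368 in replicates 1 and 2, and their part in the difference was not tested.

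The 10-cell libraries were also set against the 4 libraries of 100 and 1000 cells. This comparison shares its 10-cell and 1000-cell libraries with the one above. RPS27 was lower at -1.21 ± 0.12 (log2, SE, adjusted p = 0.00645, edgeR), with 60.0 and 72.6 CPM at 10 cells and 129 to 171 CPM at 100 and 1000 cells. It was the single gene called lower among 15926 tested (0.00628%). The call was lost without 10 cells replicate 1 (adjusted p of 0.114) or replicate 2 (0.107), and held without each other library in turn. The other 27 members did not pass. The median over members was -0.18, with 24 of 28 below 0, and 6 members, RPS7, RPS14, RPS15A, RPS20, RPS27 and FAU, had both 10-cell libraries below the 4 others, against 12.1% of all genes. Without 100 cells replicate 1, 6 members were called lower, RPS3A, RPS7, RPS10, RPS13, RPS25 and RPS27, and 0.533% of all genes.

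Single cells against 1000 cells alone gave no called member in edgeR, and 0% of all genes. At an unadjusted p under 0.05, 3 members were lower and 0 higher, against 5.79% of all genes lower: RPS27 at -1.81 ± 0.43, RPS10 at -0.69 ± 0.27 and RPS7 at -0.35 ± 0.14 (log2, SE, adjusted p of 0.187, 0.603 and 0.628). For all 3 the single cells lay below both 1000-cell libraries. Such a separation was seen downwards for 9 of 28 members and upwards for 3, RPS2, RPS19 and RPS26. The matching shares of all genes are not given here, so these counts are not read as a result about the members. The median over members was -0.14, with 20 of 28 below 0. DESeq2 called 1 member lower, RPS27, beside 0.301% of all genes it tested. Fewer mRNA molecules per cell and fewer of them captured in the library cannot be told apart in these data.

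Other genes of the ribosome and of its assembly were read from lists in the same fits. Of 47 large-subunit genes, 2 were lower in single cells and 0 higher, beside 4.45% and 2.22% of all genes. These were RPL6 and RPL22, at -0.34 ± 0.08 and -0.49 ± 0.12 (log2, SE, adjusted p of 0.0274 and 0.0351). Their calls held in 12 and 9 of 16 alternative settings. At 10 against 1000 cells these 47 genes had a median of -0.12, with 40 below 0 and none called. In 100 cells replicate 1 the large-subunit median was -0.13, against 0.04 in replicate 2, in the same direction as the small subunit.

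Of 20 assembly factors of the small subunit, 2 were lower in single cells and none higher, beside 4.45% and 2.22% of all genes. WDR43, a nucleolar factor of early processing, had 183, 157 and 134 CPM in the single cells, 224 and 221 CPM at 10 cells, 219 and 231 CPM at 100 cells and 233 and 239 CPM at 1000 cells, at -0.53 ± 0.10 (log2, SE, adjusted p = 0.0185, edgeR). LTV1, which in yeast helps to place RPS3, RPS10 and RPS20 in the head, was at -0.53 ± 0.10 (adjusted p = 0.0188). The calls of WDR43 and LTV1 each held in 12 of 16 alternative settings. For both, every single cell lay below the 6 other libraries, as for 10.1% of all genes. The list's median was -0.02 in that comparison and 0.05 at 10 against 1000 cells, where 8 of 20 were below 0. Of 10 regulators of TOP mRNAs and of RPS6, CNBP, which binds TOP mRNAs, was higher in single cells at 0.26 ± 0.07 (adjusted p = 0.0483, edgeR). This call held in only 4 of 16 alternative settings. LARP1, MTOR and RPS6KB1 did not pass. Of 6 enzymes that add or remove ubiquitin on small-subunit proteins, among them ZNF598, RNF10 and USP10, none passed in any comparison.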

How the data were processed

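RNA from 9 samples of sorted HAP1 cells was turned into libraries with the SMART-Seq Stranded kit and sequenced in paired 50-base reads. Per the submitters' processing notes, the authors trimmed reads with Trim Galore 0.6.7, aligned them with HISAT2 2.2.1 to hg38, used SAMtools 1.16.1 and counted them with featureCounts of Subread 2.0.6. The deposited values are raw read counts per gene, per the file headers counted by strand and without joining mates into pairs. Reads that match several places or several genes were left out. The effect of this on genes with copies or overlaps was not tested.

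Groups were taken from the sample titles. Counts were analysed with edgeR 4.0.16 (R 4.3.3): TMM scaling, filterByExpr, the quasi-likelihood test in each comparison on its own samples, and Benjamini-Hochberg adjustment over all genes tested. Levels are CPM. A prior count of 2 was added for the log2 scale. Levels per kilobase used the union of counted exons on the primary chromosome, with the coordinates deposited beside the counts. Levels per coding kilobase used coding sequences from GENCODE. DESeq2 1.42.0, other scalings, no filter, thinning, 1 fit of all 9 libraries, a replicate block and leaving out each library were alternatives. The model was tested on simulated data. Total counts were 42842970 to 61645865, and the lowest member count was 407 reads. How many captured molecules these reads stand for was not tested, so high read counts alone do not show that single-cell values are precise. RPS27 had at least 1325 reads in every library, yet an SD of log2 CPM of 0.76 among the single cells. The text gives every library for members past the test, for the 3 highest and the 3 lowest per kilobase and for the 3 with the largest spread among single cells, and for RPSA, RPS7, RPS13, RPS25 and RPS27A, chosen after their values were seen, as was the test given for RPS9. The members and lists were chosen with earlier results of these data known. Some results on other genes of the small subunit and on marker genes are not reported here. A start over 1000 bases outside the counted gene was set aside, a limit chosen after seeing the data.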

Additional observations from a re-analysis of the deposited data

Results flagged for a closer look

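Among the 6 libraries of 10, 100 and 1000 cells, 2 of the 28 members had 1 library far from the rest by Dixon's criterion for 6 samples, which chance meets in about 1 of 20 sets. Both were low in 10 cells replicate 1. RPS15 had 287 CPM there, with the next library at 319.8 CPM and the highest at 332 CPM. RPS26 had 9.39 CPM there, with the next library at 12.5 CPM and the highest at 13.9 CPM. All windows of RPS26 occur in copies, and its level was the lowest of the members.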

How the results depend on the processing

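The median at 100 against 1000 cells ran from -0.201 to 0.0357 when each library was left out in turn. At 10 against 1000 cells, RPS6 was at -0.00309 with total counts. With 1 library left out it ran from -0.160 to 0.155 (below 0 without 10 cells replicate 1 or 1000 cells replicate 2), RPS9 from -0.0921 to 0.139 (below 0 without 10 cells replicate 2 or 1000 cells replicate 1) and RPSA from -0.0351 to 0.339 (below 0 without 1000 cells replicate 1). The other medians, and the other genes for which alternatives were computed, kept their direction. Medians of the members moved by less than the spread between replicates under all other settings, and also when only the 14 members with under 50% of windows in copies were used, a choice made after seeing the data. For single cells against the 6 other libraries, members higher fell to 1 with total counts or without the filter and to 0 in 1 fit of all 9 libraries, where no gene passed, and members lower fell to 0 with total counts, thinning or that fit. DESeq2 called 3 members higher, RPS26 besides RPS2 and RPS19, and 1 lower, RPS27. Of all 16858 genes in that test, it called 1258 higher and 11.1% lower. Leaving out 1 library gave 0 to 2 higher and 0 to 2 lower, with RPS9 called lower without single cell 1 and RPS28 without single cell 2. The fits without single cell 1 or 2 called 10.9% and 11.3% of all genes lower. Against 1000 cells alone, 1 member was lower with DESeq2, beside 0.301% of all genes. At 10 against 1000 cells, 8 members were lower without the filter and 9 with DESeq2, and leaving out 1 library gave 2 to 20 lower and 0 to 1 higher. At 100 against 1000 cells this gave 0 to 18 lower. At 10 against 100 and 1000 cells it gave 0 to 6 lower, and 1 fit of all 9 libraries gave 0. The median SD among single cells was 0.16 to 0.19 with 1 cell left out and 0.23 with a prior count of 0.5. The cause of each change was not tested.

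Same-numbered libraries did not deviate together (Pearson correlations of -0.04 to 0.02 over 12 pairs), so the numbers do not pair the samples. With the replicate block, 4 members were lower at 10 against 1000 cells and 1 at 1 against 1000 cells. The shares of all genes called lower were 0.155% and 0.026%. In single cells against the 6 others, RPS27 then missed the threshold (adjusted p of 0.0962, edgeR) and RPS28 was called lower. In that fit 8.25% of all genes were called lower.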
